A study of Homo sapiens with 33 samples.

Results

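The 10 genes CCND1, CCND3, CDK2, CDK4, CDK6, CDKN1B, CDKN2C, RB1, RBL1 and RBL2 form the core of the machinery that controls passage through the G1 phase of the cell cycle. They were chosen by name, with earlier results of these data known, from the 59428 genes of a 3′ tag RNA sequencing count table. All 10 passed the filter on low counts in both experiments. The study measured 33 libraries of breast cancer cell lines whose labels spell them MDA-MD-468 and MDA-MD-231, which correspond to the established triple-negative lines MDA-MB-468 and MDA-MB-231. Inhibitor libraries, 11 per line, are the combination SY200/V50, SY200 alone and V50 alone, each at 3, 6 and 12 h, and at 0 h a DMSO library and an untreated library labelled Parental, all with the genotype label WT. Knockout libraries, all of MDA-MD-231, are CDK7/9 KO, CDK7 KO, CDK9 KO, CDK1 KO and Empty vector, each at 72 and 96 h, and a further Parental library. The series design describes the drugs as a CDK7 inhibitor and a CDK9 inhibitor, but nothing in the labels ties SY200 or V50 to a kinase or gives a unit for the numbers in their names. No label gives the edited sites, whether a knockout line is 1 clone, or whether libraries came from separate cultures.

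D-type cyclins, such as cyclin D1 (CCND1) and cyclin D3 (CCND3), bind the kinases CDK4 and CDK6 in G1 phase, and these complexes phosphorylate the retinoblastoma protein RB (RB1) and its relatives p107 (RBL1) and p130 (RBL2). Unphosphorylated RB proteins bind E2F transcription factors and hold back the genes of DNA synthesis, and p130 is the family member typical of quiescent cells. CDK2 continues RB phosphorylation together with cyclin E. The inhibitors p27 (CDKN1B) and p18 (CDKN2C) block CDK2 and CDK4/6 complexes. CDK7 phosphorylates several of these kinases in its role as CDK-activating kinase and, like CDK9, also phosphorylates RNA polymerase II, so both kinases act in transcription. MDA-MB-468 is known in the literature as a line that has lost RB1.

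Library totals ran from 16985219 to 22859779 counts. Levels are given in CPM, counts scaled to a common TMM-adjusted library total, and as each transcript is read near its 3′ end they were not compared between genes. Each line, condition and time had 1 library, so the p-values rest on how the lines, or the 2 knockout times, differed, and the treated libraries of 3 to 12 h were set against controls of 0 h, so time and treatment cannot be told apart. The 10 MDA-MB-231 markers (VIM, AXL and others) summed to 404 to 784 CPM in MDA-MD-468 libraries, against 8505 to 14940 CPM in MDA-MD-231 inhibitor libraries. The 10 epithelial MDA-MB-468 markers (EPCAM, CDH1 and others) summed to 3946 to 7870 CPM in MDA-MD-468 libraries, against 797 to 1351 CPM in MDA-MD-231 inhibitor libraries. The 10 immune cell markers summed to at most 23.1 CPM. The share of counts on 13 mitochondrially encoded mRNAs moved with treatment: in MDA-MD-468 it was 7.06%, 9.24% and 13.5% at 3, 6 and 12 h of SY200/V50, against 3.93% with DMSO and 3.88% in Parental cells, and in MDA-MD-231 it was 3.21%, 4.66% and 5.05%, against 2.51% and 2.18%. TMM scaling assumes that most genes do not change, so a higher or lower level below is relative to the other mRNAs of the library. When libraries were instead scaled to those 13 mRNAs, the median log2 fold change over all genes moved to -1.33 for SY200/V50, -0.44 for SY200 and -0.92 for V50, from values near 0 (0.09, -0.01 and 0.00), and directions that turn under that scaling are named with the main results. Read library by library, the same scaling restates this shift and is no separate support. Of the values of the 10 genes under SY200/V50, 29 lay above both controls of their line in CPM, 26 below both and 5 between them. Per mitochondrial count, a gene's counts over the library's counts on those 13 mRNAs, 25 of the 29 lay below both controls and 4 between them. The share of all genes that moved in this way is not given here. In bulk libraries, fewer cells of a type and less RNA per cell cannot be told apart.

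Promoters of 3 genes are shown because these were the genes of the 10 whose SY200/V50 libraries all lay outside both controls in both lines in CPM: CDK4 and RBL2 above them (fitted below control under mitochondrial scaling), and RBL1 below them. Each sequence runs from 250 bases before to 50 bases after the annotated start and comes from RefSeq, build GRCh38.p14. Capitals mark exact matches on either strand to the E-box CACGTG or to the E2F-type motifs TTTGGCGC, TTTCCCGC, TTTCGCGC and TTTGCCGC, which overlapped nowhere here.
CDK4, chr12:57752261-57752560, minus strand: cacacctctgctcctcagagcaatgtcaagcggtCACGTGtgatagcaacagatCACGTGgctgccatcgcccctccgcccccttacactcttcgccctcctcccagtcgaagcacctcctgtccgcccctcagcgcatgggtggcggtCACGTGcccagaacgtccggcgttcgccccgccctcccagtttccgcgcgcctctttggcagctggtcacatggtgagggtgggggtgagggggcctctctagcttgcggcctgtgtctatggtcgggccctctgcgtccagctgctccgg
RBL1, chr20:37095948-37096247, minus strand: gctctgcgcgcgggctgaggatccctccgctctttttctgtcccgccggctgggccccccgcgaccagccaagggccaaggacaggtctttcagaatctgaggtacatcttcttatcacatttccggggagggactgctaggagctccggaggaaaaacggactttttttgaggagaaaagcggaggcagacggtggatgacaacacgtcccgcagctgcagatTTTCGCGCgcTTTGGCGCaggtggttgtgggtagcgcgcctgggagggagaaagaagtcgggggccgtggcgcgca
RBL2, chr16:53434221-53434520, plus strand: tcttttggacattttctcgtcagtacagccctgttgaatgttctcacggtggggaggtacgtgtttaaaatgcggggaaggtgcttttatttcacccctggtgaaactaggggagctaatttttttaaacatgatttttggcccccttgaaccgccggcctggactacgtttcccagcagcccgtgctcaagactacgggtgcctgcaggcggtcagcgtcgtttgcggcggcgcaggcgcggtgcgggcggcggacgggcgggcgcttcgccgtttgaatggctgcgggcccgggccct
The CDK4 window held 3 E-boxes, at -216 to -211, -196 to -191 and -101 to -96 from the start. Of 35116 promoters of this length, 7.26% held at least 1 E-box and 0.094%, or 33, held at least 3. The RBL1 window held TTTCGCGC at -26 to -19 and TTTGGCGC at -16 to -9, and 3.31% of all promoters held any of the E2F-type motifs. Neither motif was in the RBL2 window. Of the 10 genes, 8 had a promoter entry, all but CCND1 and CDK2. Beside CDK4 and RBL1, CDK6 held 1 E-box in an entry and CDKN2C held 1 in each of its entries 1 and 3. No other entry of the 8 genes matched. The RB1 entry, chr13:48476200-48476499, lies within the gene, which starts at chr13:48303726, so the sequence at that start was not searched. Every entry of CDK4, RBL2, CCND3 and CDKN1B also lies within the gene span given below. Offsets and matches for these genes refer to the RefSeq start, not to the outer end of that span. These matches are a description of the sequence, not of binding.

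In the GENCODE 29 annotation of GRCh38, the cyclin genes lie at separate loci, CCND1 at chr11:69641087-69654474 (plus strand) and CCND3 at chr6:41934933-42050357 (minus strand). The kinase genes are CDK2 at chr12:55966769-55972784 (plus strand), CDK4 at chr12:57747727-57756013 (minus strand) and CDK6 at chr7:92604921-92836594 (minus strand). The inhibitor genes are CDKN1B at chr12:12715058-12722371 (plus strand) and CDKN2C at chr1:50960745-50974633 (plus strand), and the RB family is RB1 at chr13:48303726-48599436 (plus strand), RBL1 at chr20:36996349-37095995 (minus strand) and RBL2 at chr16:53433977-53491649 (plus strand). Genes on the opposite strand cover the 3′ ends of CCND1 (LTO1), CDK2 (PMEL), CDK4 (TSPAN31) and RBL2 (AKTIP); the counting strand is not given in the sources used here, so reads of such a pair may be mixed, and the neighbour's value is given beside the gene's main results. Its part in them was not tested.

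Before any treatment, the lines differed in most of these genes. In the control libraries, 9 of 10 genes differed between MDA-MD-468 and MDA-MD-231 by edgeR's quasi-likelihood test with Benjamini-Hochberg adjustment over all 18911 genes tested (threshold 0.05), 1 higher and 8 lower in MDA-MD-468, while 53.8% of all genes tested did so. RB1 had few counts in MDA-MD-468: 1.06 CPM with DMSO and 1.67 CPM in Parental cells, against 94.7 and 106 CPM in MDA-MD-231, a log2 fold change of -6.19 ± 0.34 (SE, edgeR adjusted p = 2.05e-09). Over all 11 MDA-MD-468 libraries RB1 had 23 to 58 counts, so any change within that line rests on few reads. RBL2 ran the other way, with 89.6 and 85.9 CPM in MDA-MD-468 controls and 12.6 and 16.4 CPM in MDA-MD-231 controls (2.60 ± 0.21, edgeR adjusted p = 1.22e-07). RBL2 was the 1 gene of the 10 with a higher level in MDA-MD-468. Its antisense neighbour AKTIP was also higher in MDA-MD-468, with 64.0 and 43.8 CPM, against 16.5 and 11.8 CPM in MDA-MD-231 (1.93 ± 0.28, edgeR adjusted p = 4.01e-05). That call was lost in 0 of 22 fits that left out 1 library.

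Cyclin D1 and its partners were lower in MDA-MD-468 controls. CCND1 had 192 and 295 CPM in MDA-MD-468, against 790.5 and 928 CPM in MDA-MD-231, for DMSO and Parental cells in that order (-1.82 ± 0.31, edgeR adjusted p = 0.000166). LTO1, antisense over its 3′ end, was higher in MDA-MD-468 (0.58 ± 0.23, edgeR adjusted p = 0.0428) but turned to -0.14 under mitochondrial scaling. Its call was lost in 9 of 22 fits that left out 1 library. CDK6 had 31.6 and 27.3 CPM, against 102 and 118 CPM in MDA-MD-231 (-1.90 ± 0.19, edgeR adjusted p = 1.2e-06). RBL1, CDK4, CDK2 and CCND3 differed by -1.44 ± 0.27, -1.10 ± 0.23, -1.10 ± 0.24 and -0.96 ± 0.18, all lower in MDA-MD-468. TSPAN31 beside CDK4 (-0.33 ± 0.26, edgeR adjusted p = 0.302) and PMEL beside CDK2 (-0.28 ± 0.35, edgeR adjusted p = 0.526) did not pass. CDKN2C differed by -0.72 ± 0.26 (edgeR adjusted p = 0.0282) and lost its call without MDA-MD-468 Parental (-0.44 with adjusted p = 0.259), without MDA-MD-231 DMSO (-0.67 with adjusted p = 0.0947) and without MDA-MD-231 Parental (-0.72 with adjusted p = 0.0769). With DMSO as the sole control, neither CDKN2C (-0.47, adjusted p = 0.331) nor CDK2 (-0.83, adjusted p = 0.0766) passed. CDKN1B, with 32.6 and 28.96 CPM in MDA-MD-468 and 41.2 and 49.3 CPM in MDA-MD-231, did not pass the test (-0.56 ± 0.32, edgeR adjusted p = 0.153).

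**Figure D1:**
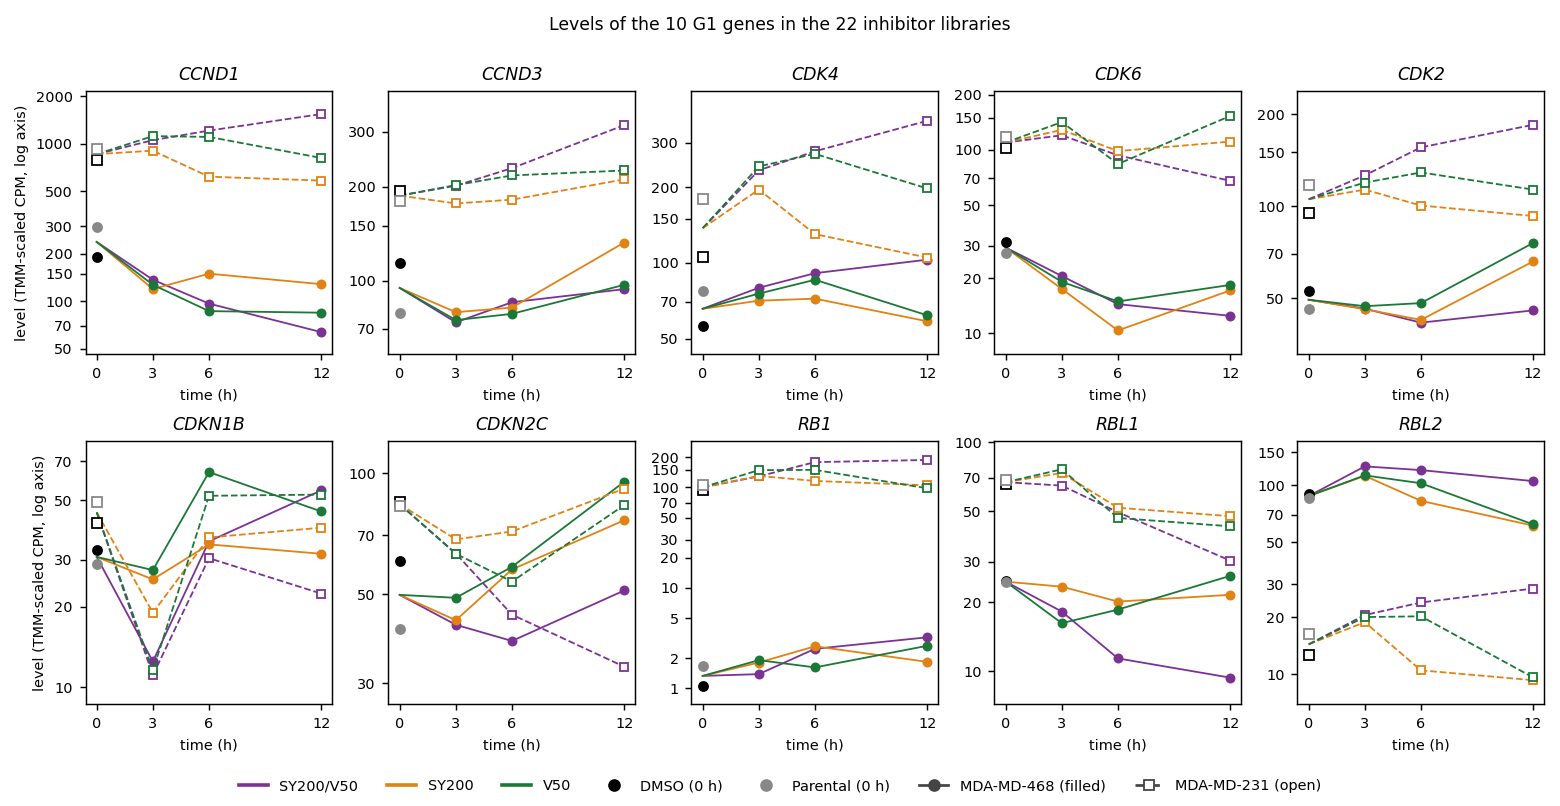
Level of each of the 10 genes (TMM-scaled CPM, log axis) against time (h) in the 22 inhibitor libraries. Filled circles are MDA-MD-468 and open squares MDA-MD-231, colours are SY200/V50, SY200 and V50, black and grey points at 0 h are DMSO and Parental, and lines start at the mean of these controls. RB1 lies near 1.38 to 3.21 CPM in MDA-MD-468 under SY200/V50, against 129 to 187 CPM in MDA-MD-231, and CCND1 under SY200/V50 lies below its controls in MDA-MD-468 and above them in MDA-MD-231 on this scale, but below them in both lines per mitochondrial count.

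Under the combination SY200/V50, 7 of the 10 genes changed over the mean of 3, 6 and 12 h, 6 treated libraries against 4 controls: CDK4, RB1 and RBL2 were higher relative to other mRNAs (lower under mitochondrial scaling) and CDK6, RBL1, CDKN1B and CDKN2C lower. Among all genes tested, 48.2% changed, 24% higher and 24.2% lower. DESeq2 called 6 of the 10 and 9317 of all 18911 genes tested. The median log2 fold change of the 10 genes was -0.16, against 0.09 over all genes tested. In CDK4, RBL2 and RBL1 all 3 treated libraries lay outside both controls in both lines in CPM, on the same side; 31.7% of all genes tested did so. The 3 genes that rose did so relative to other mRNAs. Under mitochondrial scaling CDK4 was at -0.71, RB1 at -0.69 and RBL2 at -0.85, all below control, where the median of all genes was -1.33. Which scaling is nearer to transcripts per cell was not tested.

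CDK4, the kinase partner of the D cyclins, had a higher CPM at each later time in both lines. In MDA-MD-468 it had 79.6, 91.0 and 103 CPM at 3, 6 and 12 h of SY200/V50, against 56.0 CPM with DMSO and 77.1 CPM in Parental cells. In MDA-MD-231 it had 233, 278 and 367 CPM, against 105 and 179.7 CPM with DMSO and in Parental cells. Every treated library exceeded both controls of its line, although the controls of MDA-MD-231 themselves lay far apart. Per mitochondrial count the MDA-MD-468 libraries lay below both controls and those of MDA-MD-231 between them. The fitted change was 0.73 ± 0.18, or 1.66-fold (edgeR adjusted p = 0.0031), and at 12 h 1.01 ± 0.23, or 2.01-fold (edgeR adjusted p = 0.0017), higher relative to other mRNAs but -1.01 at 12 h under mitochondrial scaling. TSPAN31, antisense over its 3′ end, also rose relative to other mRNAs, with -0.83 under mitochondrial scaling and the call lost in 3 of 22 fits that left out 1 library (0.61 ± 0.19, edgeR adjusted p = 0.0147; 68 to 232 counts per library). At 12 h TSPAN31 was at 0.91 ± 0.25, edgeR adjusted p = 0.00544.

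RBL2, which encodes p130, shared this direction. In MDA-MD-468 it had 126, 120.4 and 105 CPM under SY200/V50, against 89.6 CPM with DMSO and 85.9 CPM in Parental cells. MDA-MD-231 cells had 20.6, 24.0 and 28.4 CPM, against 12.6 and 16.4 CPM in the controls. All 6 treated libraries lay above both controls of their line in CPM. Per mitochondrial count 5 lay below both and the 3 h library of MDA-MD-231 between them. In CPM the level was highest at 3 h in MDA-MD-468 and at 12 h in MDA-MD-231. The fitted change was 0.58 ± 0.14, or 1.496-fold (edgeR adjusted p = 0.00285), above control relative to other mRNAs and below it under mitochondrial scaling. At 12 h the call (0.64 ± 0.19, edgeR adjusted p = 0.00858) was lost without MDA-MD-231 SY200/V50 12 h (0.25 with adjusted p = 0.303), and at 6 h the call (0.59 ± 0.18, edgeR adjusted p = 0.0199) was lost without MDA-MD-468 SY200/V50 6 h (0.69 with adjusted p = 0.0651), MDA-MD-231 SY200/V50 6 h (0.47 with adjusted p = 0.203) or MDA-MD-231 DMSO (0.50 with adjusted p = 0.0572). Its antisense neighbour AKTIP was at -0.04 ± 0.20 (edgeR adjusted p = 0.878) over the mean of the times, -0.11 ± 0.27 at 6 h and -0.12 ± 0.27 at 12 h, and passed at none of these.

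RB1 itself rose in the fit over both lines, on levels that in MDA-MD-468 rest on few reads. In MDA-MD-231 it had 129, 178.5 and 187 CPM at 3, 6 and 12 h of SY200/V50, against 94.7 CPM with DMSO and 106 CPM in Parental cells, so that all 3 treated libraries lay above both controls, and below both per mitochondrial count. In MDA-MD-468 it had 1.38, 2.47 and 3.21 CPM, against 1.06 and 1.67 CPM, and the 3 h library lay between the controls. The fitted change over both lines was 0.70 ± 0.19, or 1.63-fold (edgeR adjusted p = 0.00489), 0.83 ± 0.24 at 6 h (edgeR adjusted p = 0.0123) and 1.03 ± 0.24 at 12 h (edgeR adjusted p = 0.00197), with the direction turned at the mean of the times (-0.69) under mitochondrial scaling. The 6 h call was lost without MDA-MD-231 SY200/V50 6 h (0.73 with adjusted p = 0.186).

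RBL1, which encodes p107 and is itself an E2F target gene, fell, and lay below both controls of each line at every time. In MDA-MD-468 it had 18.2, 11.4 and 9.38 CPM under SY200/V50, against 24.7 CPM with DMSO and 24.5 CPM in Parental cells. The values in MDA-MD-231 were 64.6, 49.5 and 30.4 CPM, against 65.7 and 68.1 CPM. The 3 h library of MDA-MD-231 lay just under the lower control, and the 12 h level in each line was under that of every other library of the line. The fitted change was -0.74 ± 0.18, or 1.67-fold lower (edgeR adjusted p = 0.00246), and -1.26 ± 0.26 at 12 h, or 2.39-fold lower (edgeR adjusted p = 0.000708). At 6 h RBL1 was also called (-0.74 ± 0.25, edgeR adjusted p = 0.0292), but not without MDA-MD-468 SY200/V50 6 h (-0.47 with adjusted p = 0.329). Of the RB family, RBL1 thus fell while RBL2 and RB1 rose relative to other mRNAs, and all 3 were below control under mitochondrial scaling.

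CDK6, the other partner of the D cyclins, fell, while CDK4 rose relative to other mRNAs and was below control under mitochondrial scaling. In MDA-MD-468 it had 20.5, 14.4 and 12.5 CPM under SY200/V50, against 31.6 CPM with DMSO and 27.3 CPM in Parental cells, all 3 below both controls. In MDA-MD-231 it had 120.1, 93.4 and 67.8 CPM, against 102 and 118 CPM, so that its 3 h library was above both controls, or below both per mitochondrial count, and the 6 and 12 h libraries below. The fitted change was -0.63 ± 0.18, or 1.55-fold lower (edgeR adjusted p = 0.00679). At 12 h it was -1.01 ± 0.25 (edgeR adjusted p = 0.00317), a call that was lost without MDA-MD-231 SY200/V50 12 h (-0.92 with adjusted p = 0.0538). The 6 h call (-0.67 ± 0.24, edgeR adjusted p = 0.0435) ended without any of 6 libraries, SY200/V50 3 h and 6 h of either line and both MDA-MD-468 controls (adjusted p 0.0512 to 0.206).

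The CDK inhibitor genes CDKN1B and CDKN2C fell over the mean of the times. CDKN1B (p27) had 12.5, 35.2 and 54.5 CPM at 3, 6 and 12 h in MDA-MD-468, against 32.6 CPM with DMSO and 28.96 CPM in Parental cells. In MDA-MD-231 it had 11.1, 30.4 and 22.4 CPM, against 41.2 and 49.3 CPM. Both lines thus had a low level at 3 h, after which MDA-MD-468 was above its controls in CPM at 6 and 12 h while MDA-MD-231 stayed below. Per 1000 mitochondrial counts the direction in MDA-MD-468 turned: CDKN1B had 0.187, 0.374 and 0.336 counts at 3, 6 and 12 h, against 0.955 with DMSO and 0.811 in Parental cells, below both controls at every time. At 3 h CDKN1B was the 1 gene of the 10 that passed, where 7.54% of all genes tested did: -1.71 ± 0.36, or 3.27-fold lower (edgeR adjusted p = 0.00796). Without the 3 h library of MDA-MD-468 the 3 h value was -1.72 with adjusted p = 0.132, and without that of MDA-MD-231 it was -1.71 with adjusted p = 0.114, each fit with 1 library left at that time and assumed to vary like the others. Over the mean of the times CDKN1B was at -0.66 ± 0.24 (edgeR adjusted p = 0.0321).

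That mean call of CDKN1B was lost under DESeq2 (-0.61, adjusted p = 0.0527) and without any of 7 libraries: MDA-MD-468 SY200/V50 3 h (-0.67 with adjusted p = 0.0573) or 6 h (-0.67 with adjusted p = 0.0527), MDA-MD-231 SY200/V50 3 h (-0.67 with adjusted p = 0.0612), 6 h (-0.66 with adjusted p = 0.0646) or 12 h (-0.50 with adjusted p = 0.117), and MDA-MD-231 DMSO (-0.61 with adjusted p = 0.0764) or Parental (-0.49 with adjusted p = 0.118). CDKN2C (p18) had 41.9, 38.2 and 51.0 CPM in MDA-MD-468, against 60.5 CPM with DMSO and 40.9 CPM in Parental cells, with 2 of the 3 libraries between the controls. MDA-MD-231 cells had 63.1, 44.4 and 33.0 CPM, against 84.7 and 82.7 CPM, a stepwise lower level at each time. The fitted change was -0.55 ± 0.18, or 1.46-fold lower (edgeR adjusted p = 0.0206). It was lost without MDA-MD-468 SY200/V50 3 h (-0.50 with adjusted p = 0.0556), MDA-MD-231 DMSO (-0.48 with adjusted p = 0.0628) or MDA-MD-231 Parental (-0.50 with adjusted p = 0.0535). The 6 h call (-0.68 ± 0.26, edgeR adjusted p = 0.0484) ended without any of 10 libraries, namely the controls other than MDA-MD-468 Parental, and SY200/V50 3 and 6 h and V50 3 h of both lines and V50 6 h of MDA-MD-231 (-0.72 to -0.61; adjusted p 0.0505 to 0.223).

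CCND1, CCND3 and CDK2 did not pass the test over both lines, and in CPM CCND1 and CDK2 lay on opposite sides of their controls in the 2 lines, which they did not per mitochondrial count. CCND1 had 137, 96.8 and 63.8 CPM at 3, 6 and 12 h in MDA-MD-468, against 192 CPM with DMSO and 295 CPM in Parental cells. In the other line, MDA-MD-231, it had 1050, 1207 and 1537 CPM, against 790.5 and 928 CPM. Each treated CPM was below both controls in MDA-MD-468 and above both in MDA-MD-231, with an average of -0.41 ± 0.32 (edgeR adjusted p = 0.305). Per 1000 mitochondrial counts the MDA-MD-231 side turned: CCND1 had 29.8, 21.3 and 20.5 counts at 3, 6 and 12 h in MDA-MD-231, against 35.6 with DMSO and 45.5 in Parental cells. In MDA-MD-468 it had 2.05, 1.03 and 0.394, against 5.62 and 8.26, so on that scale every treated library of both lines lay below both controls. Without MDA-MD-231 SY200/V50 12 h, the average passed (-0.80 with adjusted p = 0.0228). The effect in MDA-MD-468 minus that in MDA-MD-231 was -1.90 ± 0.39 and did not pass over all genes (edgeR adjusted p = 0.0778). That difference passed under DESeq2 (-1.80, adjusted p = 0.00939), under mitochondrial scaling (-2.09, adjusted p = 0.0485), without MDA-MD-468 SY200/V50 3 h (-2.29 with adjusted p = 0.0325) and without MDA-MD-231 SY200/V50 3 h (-2.29 with adjusted p = 0.0329). LTO1, antisense over the 3′ end of CCND1, was at -0.47 ± 0.17 (edgeR adjusted p = 0.0303) over both lines, a call lost in 5 of 22 fits that left out 1 library. Its effect in MDA-MD-468 minus that in MDA-MD-231 was 0.73 ± 0.30, edgeR adjusted p = 0.25.

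CDK2, the kinase of late G1, had 46.31, 41.7 and 45.7 CPM in MDA-MD-468, against 52.9 and 46.34 CPM, and 126, 156 and 185 CPM in MDA-MD-231, against 95.0 and 117 CPM. All treated libraries lay below both controls in MDA-MD-468, by a small margin, and above both in MDA-MD-231 in CPM, but below both in either line per mitochondrial count (0.22 ± 0.19 over both lines, edgeR adjusted p = 0.352; turned to -1.22 under mitochondrial scaling). Its antisense neighbour PMEL rose relative to other mRNAs, with -0.42 under mitochondrial scaling (1.01 ± 0.24, edgeR adjusted p = 0.00249) on 11 to 71 counts per library. CCND3 had 73.4, 85.2 and 93.8 CPM in MDA-MD-468, against 114 and 78.5 CPM, and 202, 229.5 and 315 CPM in MDA-MD-231, against 194 and 181 CPM, above both controls in MDA-MD-231 alone in CPM and below both in either line per mitochondrial count (0.09 ± 0.15, edgeR adjusted p = 0.616; turned to -1.34 under mitochondrial scaling). No difference between the lines in the effect of any treatment passed edgeR's adjustment, for these 10 genes or for any gene tested (0% of all genes for each treatment). At an unadjusted p under 0.05, 5 of the 10 genes differed between lines for SY200/V50, 1 for SY200 and 3 for V50, against 3009, 1048 and 1873 of all genes. DESeq2 called 1, 1 and 0 of the 10 and 421, 33 and 120 of all genes. The 2 DESeq2 calls were CCND1 for SY200/V50 and CDK6 for SY200 (-1.05, adjusted p = 0.0316; by edgeR -1.04 ± 0.24, adjusted p = 0.447).

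**Figure D2:**
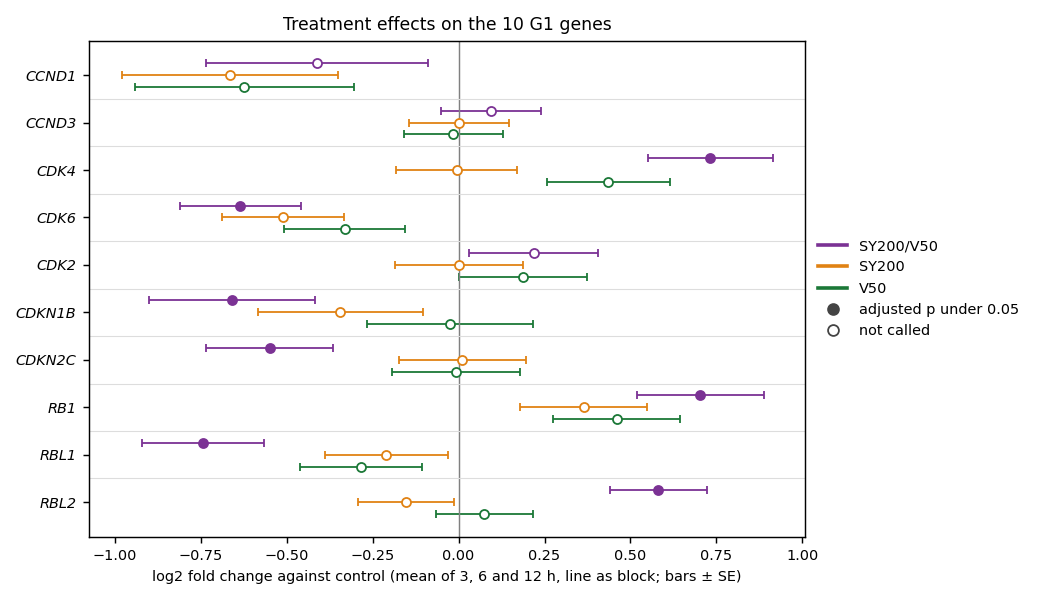
Log2 fold change (x axis) of each gene (y axis) against the 0 h controls over the mean of 3, 6 and 12 h for SY200/V50, SY200 and V50, with bars of ± SE from the edgeR fit; filled points passed an adjusted p under 0.05. SY200/V50 alone has filled points, 3 right of 0 (CDK4, RB1, RBL2, which lie left of 0 under mitochondrial scaling) and 4 left of 0.

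**Figure D3:**
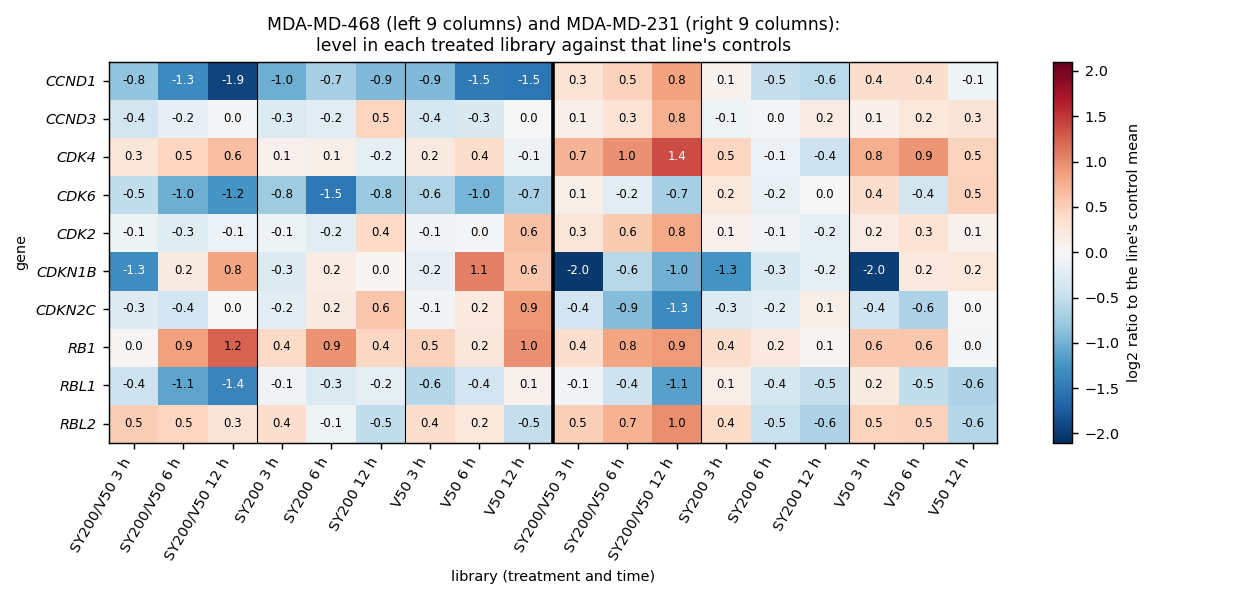
Log2 ratio (colour) of each treated library (columns) to the mean of its own line's controls for the 10 genes (rows), MDA-MD-468 left of MDA-MD-231, on TMM-scaled CPM with the log2 ratio written in each cell. CCND1 is below its controls in every MDA-MD-468 treated library, and RBL1 is lowest at 12 h of SY200/V50 in each line.

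Over the mean of the times, none of the 10 genes passed the test under SY200 or V50 alone by edgeR. For SY200, 0 of 10 passed edgeR's test (2 at an unadjusted p under 0.05, 0 by DESeq2), where 1.98% of all genes tested did, and for V50 0 of 10 passed (2 unadjusted, 0 by DESeq2), where 22.3% did. Of all 18911 genes tested, 3195 passed unadjusted and 986 by DESeq2 for SY200, and 6833 and 4851 for V50. No gene of the 10 lay outside both controls at all 3 times in both lines under either drug, against 7.8% of all genes for SY200 and 13.9% for V50. CDK4 and RB1 were nearest the threshold under V50, at 0.44 ± 0.18 (edgeR adjusted p = 0.0896; turned to -0.49 under mitochondrial scaling) and 0.46 ± 0.19 (edgeR adjusted p = 0.0831; -0.40). In MDA-MD-231, CDK4 had 242, 271 and 198 CPM at 3, 6 and 12 h of V50, all above the 2 controls (between them per mitochondrial count), and in MDA-MD-468 75.5, 85.7 and 61.9 CPM, with the 3 h and 12 h libraries between the controls. TSPAN31 under V50 was at 0.32 ± 0.19, edgeR adjusted p = 0.234. CDK4 passed under V50 without MDA-MD-468 Parental (0.58 with adjusted p = 0.04) and with DMSO as the sole control (0.76, adjusted p = 0.0236), and RB1 passed without MDA-MD-231 V50 12 h (0.62 with adjusted p = 0.0271).

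Cyclin D1 mRNA lay below its MDA-MD-468 controls with every drug. CCND1 had 119.6, 149.7 and 128.5 CPM at 3, 6 and 12 h of SY200 and 127, 86.7 and 84.8 CPM of V50 in this line, all below both controls (192 and 295 CPM). In MDA-MD-231, CCND1 had 901, 616 and 582 CPM of SY200 and 1114, 1101 and 810.2 CPM of V50, against 790.5 and 928 CPM. Per 1000 mitochondrial counts it had 37.1, 23.1 and 24.1 of SY200 and 35.3, 28.7 and 20.3 of V50 in MDA-MD-231. The controls had 35.6 with DMSO and 45.5 in Parental cells, so on that scale V50 lay below both at every time. Over both lines the values were -0.67 ± 0.31 for SY200 (edgeR adjusted p = 0.294) and -0.62 ± 0.32 for V50 (edgeR adjusted p = 0.169), and neither passed, nor did LTO1 (SY200 -0.20 ± 0.17, V50 -0.25 ± 0.17). The effect of V50 on CCND1 in MDA-MD-468 minus that in MDA-MD-231 was -1.53 ± 0.39 (edgeR adjusted p = 0.262).

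At single times, the single drugs gave 1 call among the 10 genes: CDK6 at 6 h of V50 (-0.72 ± 0.25, edgeR adjusted p = 0.042), where 23.4% of all genes tested passed. CDK6 then had 14.9 CPM in MDA-MD-468 and 83.8 CPM in MDA-MD-231, below both controls of either line. This call was lost without any of 11 of the 22 libraries (-0.81 to -0.56; adjusted p 0.0501 to 0.286): V50 6 h and SY200/V50 3 and 6 h of both lines, SY200 3 h of both lines, V50 3 h of MDA-MD-231 and both MDA-MD-468 controls. At the other single times edgeR called 0 of 10 for SY200 at 3, 6 and 12 h, with 1, 1 and 1 at an unadjusted p under 0.05 and 0, 0 and 1 by DESeq2. It called 0 of 10 for V50 at 3 and 12 h, with 3 and 1 unadjusted and 0 and 1 by DESeq2. Of all 18911 genes tested, 2322, 2310 and 3372 passed unadjusted for SY200 and 3972 and 5797 for V50. DESeq2 called 400, 324 and 1065 for SY200 and 1838 and 3667 for V50. Over all genes tested, edgeR called 0.423%, 0.264% and 2.43% for SY200 and 4.1% and 15.2% for V50. For the combination it called 6 of 10 at 6 h, where 34.7% of all genes passed, and 5 of 10 at 12 h, where 49.6% did.

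Between 3 and 12 h, RBL2 fell under each single drug and did not pass under the combination, a difference in time course that was not tested. Under SY200 it had 112, 82.8 and 61.2 CPM at 3, 6 and 12 h in MDA-MD-468 and 18.9, 10.5 and 9.29 CPM in MDA-MD-231, and under V50 113, 103 and 62.1 CPM and 20.1, 20.3 and 9.61 CPM. In both lines the 3 h CPM lay above the controls and the 12 h CPM below them. Per mitochondrial count the 3 h level lay below both controls in MDA-MD-468 and between them in MDA-MD-231. The change of 12 h against 3 h was -0.94 ± 0.22 for SY200 (edgeR adjusted p = 0.0401) and -0.96 ± 0.22 for V50 (edgeR adjusted p = 0.00978), and 0.13 ± 0.22 for SY200/V50 (edgeR adjusted p = 0.734; -1.03, turned, under mitochondrial scaling). AKTIP was at 0.26 ± 0.31, -0.25 ± 0.31 and -0.22 ± 0.32 in these 3 comparisons and passed in none. RBL2 was the 1 gene of 10 called for SY200, where 1.95% of all genes passed, and 1 of 2 for V50 with CDKN1B, where 12.8% passed. The SY200 call was lost under mitochondrial scaling (-0.81, adjusted p = 0.141) and without any of 10 libraries, namely SY200 3 and 12 h, V50 3 h and SY200/V50 3 and 6 h of either line (-1.06 to -0.86; adjusted p 0.0558 to 0.279). The V50 call was lost without MDA-MD-468 V50 3 h (-0.97 with adjusted p = 0.0634), MDA-MD-231 V50 3 h (-0.94 with adjusted p = 0.0839) or MDA-MD-231 V50 12 h (-0.87 with adjusted p = 0.0961).

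In CPM, CDKN1B had its low point at 3 h and was higher at 12 h. Per 1000 mitochondrial counts, CDKN1B under SY200/V50 went from 0.187 at 3 h to 0.336 at 12 h in MDA-MD-468. In MDA-MD-231, CDKN1B went from 0.315 to 0.299 and so did not rise. Under V50 it had 27.4, 63.8 and 45.4 CPM at 3, 6 and 12 h in MDA-MD-468 and 11.6, 52.0 and 52.5 CPM in MDA-MD-231, and the change of 12 h against 3 h was 1.37 ± 0.38 (edgeR adjusted p = 0.0264). It was lost without MDA-MD-231 V50 3 h (0.87 with adjusted p = 0.29) or MDA-MD-231 V50 12 h (1.15 with adjusted p = 0.166). Under SY200/V50 the change was 1.68 ± 0.39, or 3.20-fold (edgeR adjusted p = 0.00722), which was 0.47 under mitochondrial scaling and no longer passed (adjusted p = 0.248). It was lost without MDA-MD-468 SY200/V50 3 h (1.67 with adjusted p = 0.0648) or 12 h (0.80 with adjusted p = 0.247), or without MDA-MD-231 SY200/V50 3 h (1.66 with adjusted p = 0.0696). RBL1 was the other of 2 calls under SY200/V50, where 18.3% of all genes passed: -1.03 ± 0.28 (edgeR adjusted p = 0.0193), lost without MDA-MD-231 SY200/V50 3 h (-0.86 with adjusted p = 0.161).

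Set directly against each single drug at the same times, SY200/V50 gave a lower CDKN2C level than either drug and a higher RBL2 level relative to other mRNAs, which was lost under mitochondrial scaling. Against SY200, 4 of 10 genes differed, where 46% of all genes did: CDK4 (0.74 ± 0.16, edgeR adjusted p = 0.00126) and RBL2 (0.73 ± 0.13, edgeR adjusted p = 0.000192) higher, which turned to -0.26 and -0.26 under mitochondrial scaling with a median over all genes of -0.88, and CDKN2C (-0.56 ± 0.17, edgeR adjusted p = 0.011) and RBL1 (-0.53 ± 0.16, edgeR adjusted p = 0.0124) lower. TSPAN31 beside CDK4 was higher as well (0.69 ± 0.17, edgeR adjusted p = 0.00304; -0.31 under mitochondrial scaling), a call lost in 0 of 22 fits that left out 1 library. PMEL beside CDK2 was higher too (0.73 ± 0.21, edgeR adjusted p = 0.00926; -0.28 under mitochondrial scaling), while AKTIP beside RBL2 was at 0.05 ± 0.18, edgeR adjusted p = 0.855. The RBL1 call was lost without MDA-MD-468 SY200/V50 6 h (-0.44 with adjusted p = 0.0525). Against V50, 3 of 10 differed, where 19.9% of all genes did. RBL2 was higher (0.51 ± 0.13, edgeR adjusted p = 0.0101), at 0.00 under mitochondrial scaling, and not called without MDA-MD-468 V50 6 h (0.47 with adjusted p = 0.0518), with AKTIP at 0.22 ± 0.18, edgeR adjusted p = 0.407. CDKN2C was lower (-0.54 ± 0.17, edgeR adjusted p = 0.0299), a call lost without any of 8 libraries: SY200/V50 3 and 6 h and V50 3, 6 and 12 h of MDA-MD-468, and SY200/V50 6 and 12 h and V50 3 h of MDA-MD-231 (-0.57 to -0.39). CDKN1B was lower (-0.63 ± 0.22, edgeR adjusted p = 0.0486), a call lost without any of 15 of the 22 libraries (-0.71 to -0.40), that is all but SY200 12 h, Parental and SY200/V50 12 h of MDA-MD-468 and DMSO, Parental, SY200 12 h and V50 3 h of MDA-MD-231.

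Whether the combination differed from the 2 single effects added together on the log2 scale was tested for the mean of the times. Of the 10 genes, 0 passed edgeR's adjustment (2 at an unadjusted p under 0.05, 1 by DESeq2), where 5.04% of all genes tested did. Of all 18911 genes, 4468 passed unadjusted and DESeq2 called 1915. RBL2 was nearest, 0.66 ± 0.19 above the sum (edgeR adjusted p = 0.0507), and was the gene that DESeq2 called (0.68, adjusted p = 0.00507), with AKTIP at 0.31 ± 0.27, edgeR adjusted p = 0.512. RBL2 passed edgeR's test without MDA-MD-468 SY200/V50 12 h (0.75 with adjusted p = 0.00548), MDA-MD-468 SY200 6 h (0.75 with adjusted p = 0.0252), MDA-MD-231 SY200/V50 12 h (0.57 with adjusted p = 0.0489) or MDA-MD-231 DMSO (0.73 with adjusted p = 0.0383). For CDKN2C, the value was -0.55 ± 0.25 (edgeR adjusted p = 0.189), which passed without MDA-MD-468 SY200/V50 12 h (-0.77 with adjusted p = 0.0268).

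The knockout libraries of MDA-MD-231 carried a lower level of each targeted transcript. At 72 and 96 h CDK7 had 15.6 and 17.1 CPM in CDK7/9 KO and 15.3 and 13.7 CPM in CDK7 KO, against 49.0 and 66.5 CPM with Empty vector (-1.81 ± 0.14 and -1.98 ± 0.14; edgeR adjusted p = 0.000975 and 0.000421). CDK9 had 34.3 and 36.6 CPM in CDK7/9 KO and 33.2 and 36.4 CPM in CDK9 KO, against 70.4 and 62.1 CPM with Empty vector (-0.90 ± 0.11 and -0.93 ± 0.11; edgeR adjusted p = 0.00387 and 0.00409). CDK1 had 81.7 and 84.3 CPM in CDK1 KO, against 178 and 283 CPM with Empty vector (-1.46 ± 0.17, edgeR adjusted p = 0.0137). It was also called lower in CDK7/9 KO, where it is not a target (-0.59), a call lost in 9 of 10 fits that left out 1 library. A 3′ tag reports how much transcript there is, not whether the gene is edited. Of these target calls, leaving out 1 library ended that of CDK1 in CDK1 KO in 4 of 10 cases (-1.82 to -1.07), of CDK7 in CDK7/9 KO in 1 of 10, of CDK9 in CDK7/9 KO in 2 of 10 and of CDK9 in CDK9 KO in 1 of 10.

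Of the 10 genes, RBL2 was the 1 that rose relative to other mRNAs in CDK7/9 KO and in CDK9 KO (below Empty vector under mitochondrial scaling), comparisons that share the same Empty vector libraries. RBL2 had 30.6 and 25.8 CPM at 72 and 96 h in CDK7/9 KO, 26.8 and 21.7 CPM in CDK7 KO, 28.96 and 26.7 CPM in CDK9 KO and 21.3 and 19.3 CPM in CDK1 KO, against 20.4 and 20.5 CPM with Empty vector. Every library of CDK7/9 KO, CDK7 KO and CDK9 KO was above both Empty vector libraries in CPM. Per mitochondrial count the 96 h libraries of CDK7/9 KO and CDK9 KO lay below both and the other 4 between them. The further Parental library, in no test, had 30.4 CPM. The changes were 0.46 ± 0.11, or 1.38-fold (edgeR adjusted p = 0.0291), in CDK7/9 KO and 0.44 ± 0.11, or 1.36-fold (edgeR adjusted p = 0.0407), in CDK9 KO, 0.24 ± 0.11 (edgeR adjusted p = 0.303) in CDK7 KO and -0.01 ± 0.11 (edgeR adjusted p = 0.969) in CDK1 KO. AKTIP was at -0.27 ± 0.17, edgeR adjusted p = 0.304, in CDK7/9 KO and -0.22 ± 0.17, edgeR adjusted p = 0.42, in CDK9 KO. As with the combination SY200/V50, RBL2 was higher relative to other mRNAs but lower under mitochondrial scaling. On that scale RBL2 was at -0.36 in CDK7/9 KO and -0.39 in CDK9 KO, where the medians over all genes were -0.81 and -0.82. The mitochondrial share was 5.38% and 5.41% in CDK7/9 KO and 5.04% and 5.98% in CDK9 KO, against 3.78% and 2.60% with Empty vector; its part in the result was not tested.

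Over all genes tested, 11.3% passed in CDK7/9 KO, 0.0238% in CDK7 KO, 8.16% in CDK9 KO and 0.352% in CDK1 KO. Among the 10 genes edgeR called 1 in CDK7/9 KO and 1 in CDK9 KO, and 0 in CDK7 KO (1 at an unadjusted p under 0.05, 0 by DESeq2) and 0 in CDK1 KO (1 unadjusted, 0 by DESeq2), while DESeq2 called 2 in CDK7/9 KO and 0 in CDK9 KO. Of all 16783 genes tested, 2887 in CDK7 KO and 3781 in CDK1 KO passed unadjusted. DESeq2 called 1827 of all genes in CDK7/9 KO, 199 in CDK7 KO, 1475 in CDK9 KO and 412 in CDK1 KO. Both RBL2 calls depended on single libraries: with 4 residual degrees of freedom, that in CDK7/9 KO was lost without any of 7 of 10 libraries, both CDK7/9 KO, both CDK7 KO, both CDK1 KO and CDK9 KO 72 h (0.39 to 0.51; adjusted p 0.0562 to 0.218), and that in CDK9 KO without any of 8, all but the 2 Empty vector libraries (0.41 to 0.45; adjusted p 0.0812 to 0.336). CCND1 was next, with 1160 and 1248 CPM in CDK7/9 KO, against 994 and 966 CPM with Empty vector (0.30 ± 0.09, edgeR adjusted p = 0.0547). It passed under DESeq2 (0.29, adjusted p = 0.0459), without Empty vector 72 h (0.33 with adjusted p = 0.000312) and without Empty vector 96 h (0.24 with adjusted p = 0.0166), and was -0.50 under mitochondrial scaling; LTO1 was at 0.06 ± 0.11. CDK4 had 112 and 117.5 CPM in CDK1 KO, against 137 and 148 CPM with Empty vector (-0.31 ± 0.09, edgeR adjusted p = 0.121; without Empty vector 72 h -0.38 with adjusted p = 0.000203). TSPAN31 was at -0.17 ± 0.15 there. Without Empty vector 72 h, the 96 h library is the sole control, and more calls were made among the 10 genes than the 2 with all libraries. The share of all genes called in that fit is not given here, so this is no result about the 10 genes.

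**Figure D4:**
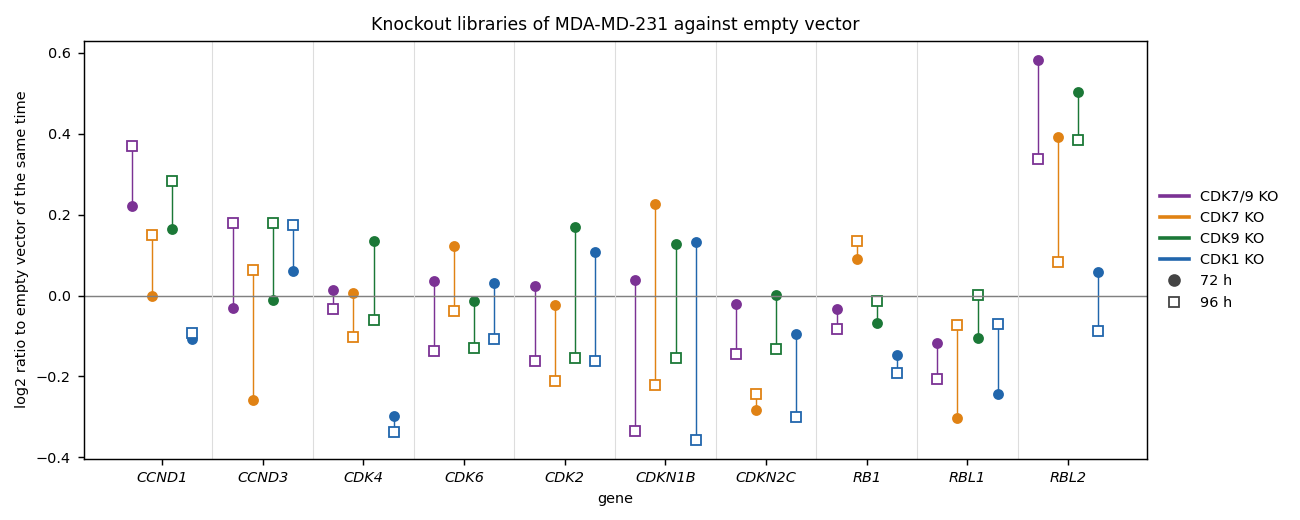
Log2 ratio (y axis) of each knockout library of MDA-MD-231 to the Empty vector library of the same time for the 10 genes (x axis), with colours for CDK7/9 KO, CDK7 KO, CDK9 KO and CDK1 KO, filled circles for 72 h and open squares for 96 h, joined by a line. RBL2 lies above 0 in all libraries of CDK7/9 KO, CDK7 KO and CDK9 KO (30.6 and 25.8 CPM in CDK7/9 KO, against 20.4 and 20.5 CPM with Empty vector), a direction that turns in the fits of CDK7/9 KO and CDK9 KO under mitochondrial scaling.

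A list of 27 other genes of the G1/S transition (cyclins, CDK inhibitors, E2F and DP factors, CDK activators and ubiquitin ligases, and the MuvB complex that joins p107 and p130 in the repressive DREAM complex) was read in the same fits. Under SY200/V50, 6 of 27 rose relative to other mRNAs and 13 fell by edgeR, with a median log2 fold change of -0.78, against 0.09 over all genes tested, of which 24% rose and 24.2% fell. The 3 with the largest rise were E2F1 (0.93 ± 0.18, adjusted p = 0.000495), the activating E2F released from RB, CKS1B (0.79 ± 0.12, adjusted p = 3.95e-05), a cofactor of p27 degradation, and CDKN2A (0.72 ± 0.23, adjusted p = 0.0333), the gene of p16. All 6 that rose were below control under mitochondrial scaling (E2F1 -0.51, CKS1B -0.64, CDKN2A -0.79, TFDP1 -0.98, TFDP2 -1.06, RBBP4 -1.01). CDKN2A had a count of 0 in every MDA-MD-231 inhibitor library, so its value rests on MDA-MD-468, and the call was lost in 5 of 22 fits that left out 1 library.

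The 3 with the largest fall were E2F6 (-2.17 ± 0.33, adjusted p = 5.22e-05), a repressive E2F, LIN54 (-2.17 ± 0.24, adjusted p = 3.07e-06), the DNA-binding subunit of MuvB, and CDC25A (-1.94 ± 0.31, adjusted p = 7.88e-05), the phosphatase that activates CDK2. LIN54 had 12.8, 5.42 and 6.36 CPM at 3, 6 and 12 h in MDA-MD-468, against 28.9 CPM with DMSO and 25.9 CPM in Parental cells, and 10.1, 5.47 and 3.00 CPM in MDA-MD-231, against 34.3 and 32.6 CPM, so all 6 treated libraries lay below their controls. By role, 0 cyclins rose and 1 of 3 fell, 1 CDK inhibitor of 5 rose and 1 fell, 3 E2F or DP genes of 10 rose and 5 fell, 1 activator or ligase of 4 rose and 2 fell, and 1 MuvB gene of 5 rose and 4 fell. Under V50, 5 of 27 passed, where 22.3% of all genes tested did. Of these 2 rose, E2F1 (0.77 ± 0.18, adjusted p = 0.00646) and CKS1B (0.57 ± 0.12, adjusted p = 0.00278), which were -0.15 and -0.35 under mitochondrial scaling. The other 3 fell, LIN37 (-1.10 ± 0.25, adjusted p = 0.00554), LIN54 (-0.79 ± 0.24, adjusted p = 0.0248) and E2F5 (-0.68 ± 0.20, adjusted p = 0.0216); leaving out 1 library ended the LIN54 call in 5 of 22 fits and the E2F5 call in 3.

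Under SY200, edgeR called 0 of the 27 (2 at an unadjusted p under 0.05, 0 by DESeq2), where 1.98% of all genes passed. Unadjusted, 3195 of all 18911 genes passed, and DESeq2 called 986. In CDK7/9 KO, where 11.3% of all genes passed, 0 of the 25 tested rose and 2 fell, CCNE2 (-0.47 ± 0.12, adjusted p = 0.0381), the gene of cyclin E2, and CDC25A (-0.40 ± 0.10, adjusted p = 0.0359). The CCNE2 call was lost in 9 of 10 fits that left out 1 library and the CDC25A call in 8 of 10. These 2 genes also fell under SY200/V50, CCNE2 with -1.58 ± 0.29 and CDC25A with -1.94 ± 0.31 on the log2 scale.

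**Figure D5:**
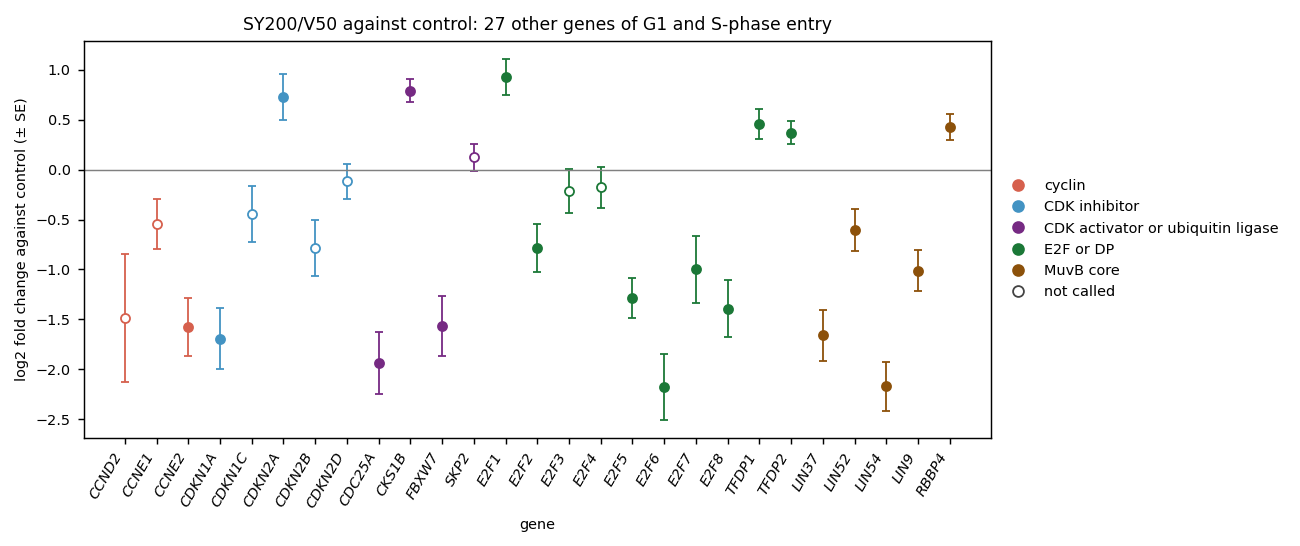
Log2 fold change ± SE (y axis) under SY200/V50 against the 0 h controls, over the mean of 3, 6 and 12 h, of the 27 other G1/S genes (x axis), coloured by role; filled points passed an adjusted p under 0.05. Of 27 genes, 13 are lower and 6 higher under SY200/V50, the higher ones below control under mitochondrial scaling.

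Over the 22 inhibitor libraries, with each line centred on its own mean, Pearson correlations of log2 CPM describe which genes ran alongside each other; the libraries share drugs, times and scaling, so no test is given. CDK4 and RBL2 ran together (0.80), as did CCND3 and CDK2 (0.69). CDKN2C ran opposite to RBL2 (-0.83) and CDK4 (-0.74), and CDK6 opposite to RB1 (-0.70). Among 9790 genes with a mean of at least 10 CPM, the gene outside the list nearest to CDK4 was C1QBP (0.99), to RBL2 MYO5C (0.97), to RBL1 NOL11 (0.93) and to CCND3 TP53I13 (0.93). For CDKN1B it was FBXO5 (0.92), for CDK2 ERO1A (0.91), for CCND1 LIMK1 (0.89), for RB1 NDUFAF6 (0.87) and for CDK6 TASOR2 (0.84).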

How the data were processed

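Poly(A) RNA of 33 cell line libraries was sequenced with a QuantSeq 3′ mRNA FWD kit, per the labels' protocols. The deposited table holds raw counts of reads for each gene; per the submitters' processing notes, reads were checked with FastQC and aligned with STAR 2.7.10a to GRCh38, while the sources used here do not give the counting tool, strand setting, annotation or use of molecular identifiers. Of 59428 genes, 698 are named by Ensembl ID alone.

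Genes were filtered with edgeR's filterByExpr (minimum count 10, minimum total 15), which kept 18911 inhibitor and 16783 knockout genes, scaled by TMM and tested with edgeR 4.0.16 quasi-likelihood F tests (R 4.3.3), Benjamini-Hochberg over all genes tested, threshold 0.05. The inhibitor fit held condition by time with cell line as a block (22 libraries, 11 residual degrees of freedom), the line comparison added line by treatment terms (8), and the knockout fit held genotype and time (10 libraries, 4); the further Parental library has no matching time and stayed out. Fold changes carry SE computed from the F statistic. On simulated counts, log2 changes of 1 and 2 were put into 100 genes each, none of them among the genes of lowest level. The fit recovered 78% and 100% of these for SY200/V50 and 100% and 100% for CDK7/9 KO. The simulation gave all genes the same dispersion and held no difference between lines, so these shares are not the power in the real libraries. Alternatives were DESeq2 1.42.0 and its size factors, no filter, DMSO as the sole control, no block, scaling to 13 mitochondrially encoded mRNAs and leaving out each library. All 10 genes are named; of the G1/S list, up to 3 risen and 3 fallen per comparison with the largest change, and for each of the 10 the gene with the highest correlation (that of CDKN2C is not reported here). The 10 genes and the lists were chosen with earlier results of these data known. Intervals of counting error are not given, and p-values measure the spread between these libraries, which may be technical. The sequences come from RefSeq and gene positions from GENCODE 29.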

Additional observations from a re-analysis of the deposited data

How the results depend on the processing

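Counts below are of calls among the 10 genes, added over the contrasts of a comparison. Except where stated, the share of all genes called under each setting is not given here. These counts thus describe the settings and are no result about the 10 genes. Mitochondrial scaling had the widest effect, since it moves nearly all genes: 5 calls for SY200 and 9 for V50 against control (0 each as reported), 49 over the single times (13 as reported), 12 for the combination against the single drugs (7), 1 for the line difference (0) and 18 for the knockouts (2). Over all genes it called 15832 for SY200/V50 with 171 higher, against 9114 with 4532 higher as reported. Of the values that passed the test under at least 1 of the 2 scalings, these turned under mitochondrial scaling: for V50 against control, CDK2 -0.73, CDK4 -0.49 and RBL2 -0.84, and for SY200/V50 against control, CCND3 -1.34, CDK2 -1.22, CDK4 -0.71, RB1 -0.69 and RBL2 -0.85. Further turned values were, for V50 at 3 h against control, CDK2 -0.74, and for V50 at 6 h against control, CDK2 -0.87 and RBL2 -0.64. Also turned were, for V50 at 12 h against control, CCND3 -0.86 and CDK4 -0.81, and for SY200/V50 at 3 h against control, CDK2 -0.77. Turned as well were, for SY200/V50 at 6 h against control, CCND3 -1.39, CDK2 -1.27, CDK4 -0.74, RB1 -0.58 and RBL2 -0.84, and for SY200/V50 at 12 h against control, CCND3 -1.64, CDK2 -1.62, CDK4 -1.01, RB1 -0.94 and RBL2 -1.37. Others that turned were, for SY200/V50 12 h against 3 h, CDK2 -0.85 and RBL2 -1.03, and for SY200/V50 against SY200, CCND1 -0.74, CCND3 -0.90, CDK2 -0.78, CDK4 -0.26, RB1 -0.69 and RBL2 -0.26. Then turned, for CDK7/9 KO against empty vector, CCND1 -0.50, CCND3 -0.72 and RBL2 -0.36. For SY200/V50 against V50, RBL2 lost its call at 0.00, which is not a turn. Likewise turned, for CDK9 KO against empty vector, CCND1 -0.59, CCND3 -0.73, CDK2 -0.82, CDK4 -0.78 and RBL2 -0.39. A further 46 values that passed under neither scaling also changed sign. Which scaling is nearer to transcripts per cell was not tested.

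Without the cell line as a block 0 calls were left for SY200/V50 against control, the single times, 12 h against 3 h and the combination against the single drugs, where the line difference then enters the residual, and without the time block 0 for the knockouts. With no filter on low counts the single times gave 8 calls, and with DMSO as the sole control V50 gave 1. DESeq2 gave 1 call against the sum of the single effects, as did its size factors within edgeR (1), and 2 for the line difference; the cause was not tested. Leaving out each library in turn gave 0 to 0 calls for SY200, 0 to 1 for V50, 5 to 7 for SY200/V50, 7 to 18 for the single times, 2 to 6 for 12 h against 3 h, 4 to 9 against the single drugs, 0 to 2 against the sum, 0 to 1 for the line difference, 8 to 9 for the control lines and 0 to 13 for the knockouts. CDK4, RB1, RBL1, RBL2 and CDK6 kept their calls for SY200/V50 over the mean of the times without any single library. No pairing by replicate was possible because the labels give no replicate numbers, and each line, condition and time has 1 library. The blocks above match libraries by cell line or time, not by replicate. RB1 in MDA-MD-468, at 23 to 58 counts, is the level that depth limits most.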
